A study of Homo sapiens with 8 samples.

Results

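The hairpin shCDK2 #10, a short hairpin RNA directed at the cell-cycle kinase gene CDK2, was set against a scrambled control in NB4 cells at day 2 and at day 5. The members were the #10 array and the scramble array of each day, 4 of the 8 arrays of the series, chosen by their titles. NB4 is an established human acute promyelocytic leukaemia cell line. Its cells carry the PML-RARA fusion and can be driven towards granulocyte-like cells with retinoic acid. The labels describe day 2 as an early and day 5 as a late stage of differentiation and name no differentiating agent. All groups had lentivirus at a multiplicity of infection of 10: scramble at days 2 and 5, #10 at days 2 and 5, and, used for the spread and for a second comparison, the hairpins shCDK2 #1 and #3 at days 2 and 5. Each construct and day had 1 array of total RNA, the labels do not say whether arrays came from separate cultures, and the 2 days of a construct served as its repeats. The p-values therefore set the mean change over both days against how unevenly the constructs differed between days, pooled over all 8 arrays. They speak for these arrays alone.

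CDK2 is a kinase that, with cyclin E and then cyclin A, drives entry into and passage through S phase, in part by phosphorylating the retinoblastoma protein and so freeing E2F transcription factors. Withdrawal from the cell cycle goes along with maturation in myeloid cells, which then acquire Fc receptors, integrins, granule proteins and innate immune genes in place of a proliferative programme of DNA replication and ribosome production. These statements are general background.

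The deposited values are log2 signals, in which a difference of 1 is a doubling of signal. Signals of different genes were not compared with each other, because probes differ in brightness. Array medians lay between 6.3 and 6.43 log2. Of the 8 promyelocyte markers with a probe set, 7 were above 5.83 log2 in all 4 arrays (genes averaging less than this over the series were not tested), among them the myeloperoxidase gene MPO at 13.37 to 14.35. The neutrophil elastase gene ELANE read 5.89 to 6.35, near that level, and KIT read 3.96 to 4.0 and lay under it. In these pooled-cell samples fewer cells of a type and less RNA per cell cannot be told apart. Across all probe sets the #10 array of day 2 correlated best with the #3 array of day 5 (r = 0.989) and less with the #10 array of day 5 (r = 0.982). The #10 array of day 5 was also nearest the #3 array of day 5 (r = 0.983). Both #10 arrays were farthest from scramble at day 2 (r = 0.971 and 0.964).

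The targeted gene itself was low in #10 at day 2 and close to scramble at day 5. On the brightest CDK2 probe set the signal was 9.10 in scramble and 7.54 in #10 at day 2, so #10 held 34.0% of the scramble signal. At day 5 it was 8.19 in the array labelled scramble and 8.08 in #10, which is 92.9%. The other CDK2 probe sets held 26.6% and 71.7% of scramble on day 2, then 97.5% and 85.7% on day 5. The scramble array of day 5 carried 53.2% of the day 2 scramble signal on the brightest probe set and 39.5% and 101% on the others, so on 2 of the 3 probe sets CDK2 was low there for a control. Over both days the change of CDK2 was -0.83 (SE 0.42, 95% interval -1.81 to 0.15, limma adjusted p = 0.321) and did not pass. Directions below rest in part on the array labelled scramble at day 5 and carry that doubt. In the array labelled #3 at day 2, CDK2 was near scramble (9.03), and that array enters the estimate of the spread. On the same probe set #1 read 7.78 at day 2 and 7.89 at day 5, and #3 read 7.72 at day 5. At day 2 CDK2 was thus about as low in #1 as in #10. Whether the differences below follow from the CDK2 level was not tested.

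Over both days, 258 of 12845 tested genes (2.01%) were called, 217 higher in #10 (1.69%) and 41 lower (0.319%), by limma with construct and day as terms and a Benjamini-Hochberg adjusted p under 0.05. All 258 changed in the same direction on both days, and in each both #10 arrays lay on the same side of both scramble arrays, which held for 21.2% (higher) and 32.9% (lower) of all tested genes. The genes called higher had a median change of 1.65 log2 at day 2 and 1.79 at day 5. Those called lower had medians of -1.23 and -0.90, and 35 of these 41 lay further below scramble at day 2 than at day 5. At day 2 alone, 874 genes (6.8%) were at least 1 log2 above scramble and 517 (4.02%) at least 1 log2 below. At day 5 the counts were 716 above (5.57%) and only 69 below (0.537%). The median over all tested genes was -0.03 at day 2, -0.11 at day 5 and -0.09 over both days. On both days, 399 genes (3.11%) were at least 1 log2 higher and 16 (0.125%) at least 1 log2 lower. A single day has 1 array against 1, so these counts carry no test. Any amount above scramble on both days was seen in 26.3% of all tested genes and any amount below in 41.7%, and over both days 38.7% had a change above 0 and 61.3% below. The counts of list members below are to be read against these shares. The filter on dim genes uses the mean over all arrays, so a gene dim in scramble could pass through arrays in which it was high. List medians and counts describe the tested members alone. How many of all tested genes lay further from scramble on one day than on the other was not counted. Counts of that kind, such as the 35 of 41, therefore have no share beside them.

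The calls rest on the scramble arrays and on the scaling. With either scramble array left out, 0 genes were called, and the adjusted p of the 83 called genes chosen by the naming rule ran from 0.066 to 0.340 without scramble at day 2 and from 0.187 to 0.242 without scramble at day 5. After median centring 31 of the 83 still passed, and the other 52 had adjusted p from 0.051 to 0.085. The split by direction was 217 to 41 with the values as deposited (84.1% higher), 289 to 78 after quantile normalization (78.7%) and 80 to 2 after median centring (97.6%).

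**Figure D1:**
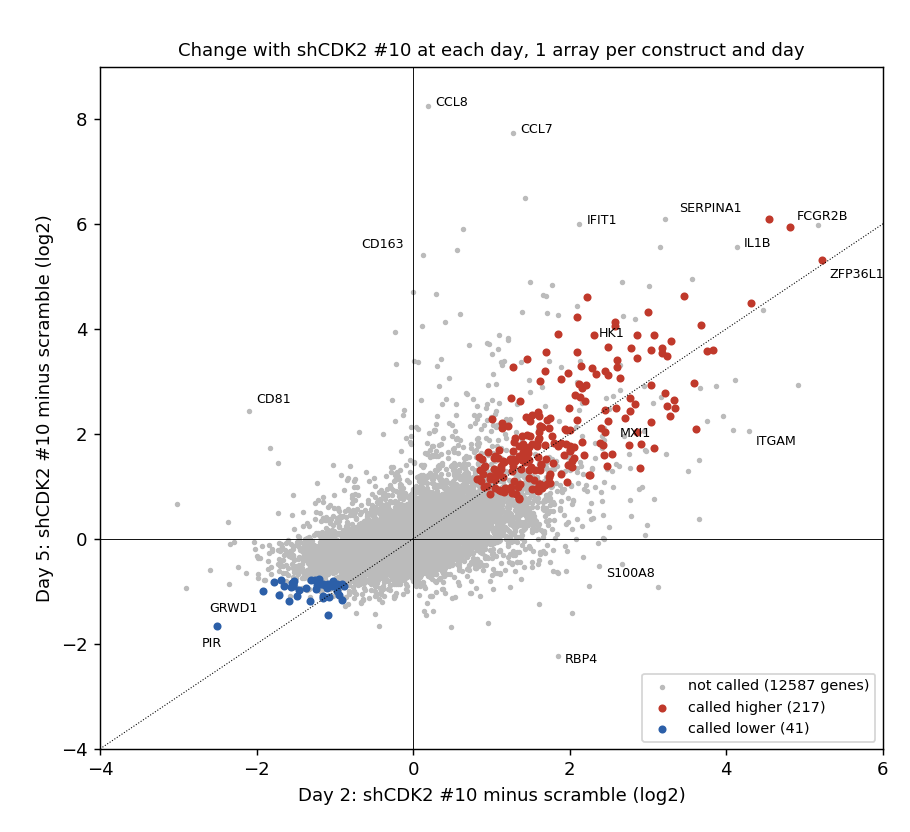
Change in shCDK2 #10 against the scramble array of the same day, at day 2 (x axis, log2) and day 5 (y axis, log2), for 12845 tested genes with 1 array per construct and day. The 217 genes called higher (red) and the 41 called lower (blue) lie on the same side of 0 on both axes, while CCL8 and CCL7 stand at 8.25 and 7.73 on the day 5 axis with 0.19 and 1.27 at day 2.

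Hypoxia-inducible genes outside glycolysis held more called genes than any other list examined, 12 of 25 tested members, all higher, beside 1.69% of all genes. The median change of the list was 1.56, with 1.43 at day 2 and 1.74 at day 5, and 22 members were higher on both days, beside 26.3% of all genes. These are genes that hypoxia-inducible factors switch on when oxygen is short. Against the same scramble arrays the list median stood at 0.09 and 0.07 in #1 at days 2 and 5 and at 0.62 and 1.54 in #3. SPAG4, a sperm-associated antigen gene, read 4.88 and 5.33 in scramble at days 2 and 5 and 8.64 and 8.92 in #10. BNIP3, whose product marks mitochondria for removal by autophagy, read 10.70 and 9.33 in scramble and 12.84 and 12.62 in #10. Its relative BNIP3L read 8.65 and 8.73 in scramble and 11.43 and 11.41 in #10. In each gene the #10 arrays were close to each other and well clear of scramble, and the rises over both days were 3.67 (SE 0.38, adjusted p = 0.013), 2.71 (SE 0.31, adjusted p = 0.016) and 2.73 (SE 0.34, adjusted p = 0.017). ADM, the gene of the vasodilator peptide adrenomedullin, read 9.86 and 8.89 in scramble and 12.07 and 11.83 in #10. HILPDA, which protects lipid droplets from breakdown, read 9.86 and 8.92 in scramble and 11.56 and 12.47 in #10. ADM rose by 2.57 (SE 0.24) and HILPDA by 2.63 (SE 0.41). The circadian repressor gene BHLHE41 rose by 3.53 (SE 0.42), from 6.19 and 6.67 to 9.48 and 10.44. The MYC antagonist gene MXI1 rose by 2.37 (SE 0.20), and DDIT4, an inhibitor of mTORC1 signalling, by 1.66 (SE 0.19). NDRG1, KDM3A, BHLHE40 and INSIG2 were the other called members, outside the 83 named by rule, and rose by 2.54, 1.60, 1.65 and 1.45.

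Glycolysis genes outside that list followed in part. Of 27 tested members 5 were called, all higher, with a list median of 0.28. HK1, the hexokinase that starts glycolysis, read 7.01 and 7.06 in scramble and 9.80 and 10.70 in #10, a rise of 3.21 (SE 0.24, 95% interval 2.66 to 3.76, adjusted p = 0.013). The brain-type aldolase gene ALDOC read 9.36 and 8.51 in scramble and 11.81 and 11.71 in #10. The neuronal enolase gene ENO2 read 7.05 and 7.01 in scramble and 9.5 and 9.46 in #10. In each of these genes both #10 arrays lay above both scramble arrays, as in 21.2% of all tested genes. The rises were 2.82 (SE 0.29) and 2.45 (SE 0.23). PFKFB4, which sets the level of an activator of glycolysis, rose by 2.42, and PDK1, which holds pyruvate back from the mitochondria, by 1.89. The lactate dehydrogenase gene LDHA, already bright at 14.14 and 14.02 in scramble, stood at 0.26 (adjusted p = 0.482), and the glucose transporter gene SLC2A1 at 0.28 (adjusted p = 0.590). Both were chosen after their values were seen.

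The hypoxia response core, ACGTG on either strand, lay in the 250 bases before the start of 12 of the 20 tested members of the hypoxia list with a RefSeq promoter (60%). It was found before 12 of 27 glycolysis genes (44.4%), 21.9% of 10382 tested genes and 18.5% of 27305 RefSeq promoters. It is short, and the palindrome CACGTG bound by MYC and related factors holds it, which stood before 30.0% of the hypoxia genes and 8.25% of tested genes. The windows of the 3 members with a match and the largest change are shown because they carry the list's values, with the match nearest the start in capitals. They are written 5′ to 3′ on the strand of the gene, from RefSeq on GRCh38.p14.
BHLHE41: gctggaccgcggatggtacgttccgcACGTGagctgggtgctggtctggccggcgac
BNIP3: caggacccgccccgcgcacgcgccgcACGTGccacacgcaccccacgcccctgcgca
P4HA1: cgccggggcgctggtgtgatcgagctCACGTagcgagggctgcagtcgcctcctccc
These lie at chr12:26125054-26125110, chr10:131982026-131982082 and chr10:73096922-73096978, all on the minus strand, with matches ending 42, 128 and 81 bases before the start. P4HA1, a collagen prolyl hydroxylase gene, read 9.73 and 9.25 in scramble and 12.43 and 11.22 in #10 and did not pass (2.33, SE 0.57, adjusted p = 0.081). A match describes these letters and is not evidence of binding.

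Lipid handling differed at single genes, and most lysosomal genes were somewhat higher. Of 19 tested genes of lipid droplets and triglyceride storage 4 were called higher, although the list median was -0.01. PLIN2, which coats lipid droplets, read 7.33 and 7.57 in scramble and 10.51 and 11.21 in #10, a rise of 3.41 (SE 0.32). VLDLR, a lipoprotein receptor gene, read 6.75 and 5.90 in scramble and 9.78 and 8.83 in #10, a rise of 2.99 (SE 0.30). LPIN1, a phosphatidate phosphatase gene, rose by 1.06 (adjusted p = 0.047), and HILPDA is counted above. The cholesterol exporter gene ABCA1, outside these lists, rose by 3.36 (SE 0.60). Cholesterol synthesis genes had 1 called member of 20, the sterol sensor partner gene INSIG1, which rose by 1.68 (SE 0.25), and a median of 0.08. The sterol oxidase gene MSMO1 stood at 1.32 and did not pass. Among 25 lysosomal genes 3 were called higher, and 22 were higher on both days, beside 26.3% of all genes (list median 0.66). The saposin precursor gene PSAP read 11.83 and 11.75 in scramble and 13.30 and 13.37 in #10, a rise of 1.55 (SE 0.17). The protease gene CTSB rose by 1.97 and the cholesterol carrier gene NPC2 by 1.76. CTSL, a further lysosomal protease gene, was 0.60 above scramble at day 2 and 4.29 at day 5 and did not pass.

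**Figure D2:**
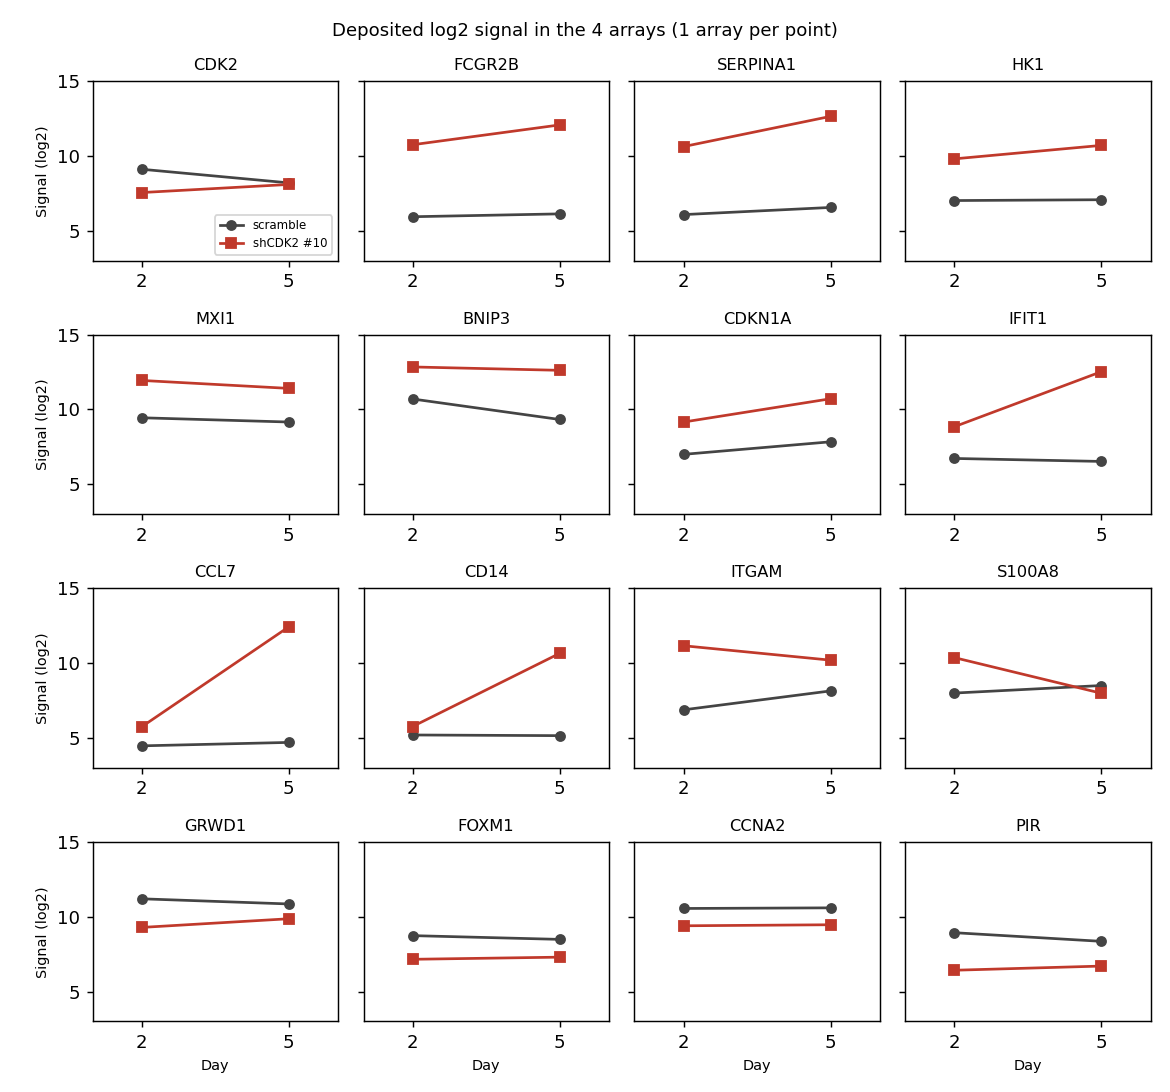
Deposited log2 signal (y axis) of 16 genes at days 2 and 5 (x axis) in scramble (grey circles) and shCDK2 #10 (red squares), 1 array per point. HK1, MXI1 and BNIP3 are well separated on both days (BNIP3 by 2.14 and 3.29), IFIT1, CCL7 and CD14 part mainly at day 5, and S100A8 crosses.

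Fc receptors and lectins of myeloid cells held few but large rises, among them the largest of all named genes, FCGR2B. FCGR2B, the inhibitory receptor for IgG, read 5.93 and 6.12 in scramble and 10.74 and 12.07 in #10, a rise of 5.38 (SE 0.58, 95% interval 4.03 to 6.73, adjusted p = 0.015) or 41.6-fold. FCER1G, the signalling chain shared by activating Fc receptors, read 8.48 and 8.62 in scramble and 10.58 and 12.19 in #10, a rise of 2.83 (SE 0.53, adjusted p = 0.047). These were the 2 called members of 6 tested Fc receptor genes (median 0.89). Of 8 C-type lectins and activation markers CLEC2B and CD69 were called (median 0.61). CLEC2B, a ligand of an activating lymphocyte receptor, read 4.22 and 4.99 in scramble, below the 5.83 log2 level, and 8.54 and 9.47 in #10. It passed the filter on dim genes through arrays in which it was high, both #10 arrays among them. CD69, an early activation marker, read 6.43 and 6.06 in scramble and 9.43 and 10.38 in #10. The rises were 4.40 (SE 0.43) and 3.66 (SE 0.50).

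Monocyte and macrophage surface markers were higher by a median of 1.30, with 0.59 at day 2 and 1.45 at day 5, and 13 of 16 were higher on both days, beside 26.3% of all genes. The co-stimulatory ligand gene CD86 read 6.35 and 7.13 in scramble and 8.38 and 8.50 in #10, and the scavenger receptor gene CD68 read 7.25 and 7.65 in scramble and 8.28 and 9.20 in #10. They rose by 1.70 (SE 0.24, adjusted p = 0.026) and 1.29 (SE 0.24, adjusted p = 0.049) and were the called members. The lipopolysaccharide co-receptor gene CD14 and the haemoglobin scavenger gene CD163 did not pass, and their #10 arrays differed widely. CD14 read 5.19 and 5.15 in scramble and 5.76 and 10.65 in #10. CD163 read 4.57 and 4.86 in scramble and 4.70 and 10.27 in #10. Both were at scramble level or near it at day 2 and more than 5 log2 above it at day 5. Of 20 markers with a probe set, 16 passed the filter on dim genes. CD14 and CD163 were below 5.83 log2 in scramble and in #10 at day 2, and passed through the arrays in which they were high. The list median and the count of 13 thus depend in part on the filter.

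Leukocyte integrins and their ligands ran the other way between days. The list of 15 had a median of 1.66 at day 2 and 0.71 at day 5. In 13 members the distance from scramble was larger at day 2 (share over all genes not counted). ITGAM, the alpha chain of the complement receptor Mac-1, read 6.88 and 8.14 in scramble and 11.16 and 10.20 in #10. ICAM1, a ligand of that receptor, read 8.18 and 10.09 in scramble and 11.84 and 12.97 in #10. In each of these genes both #10 arrays lay above both scramble arrays, as in 21.2% of all tested genes. Neither passed (3.17, SE 0.85, adjusted p = 0.097, and 3.27, SE 0.73, adjusted p = 0.071), and 0 of 15 were called. In both genes scramble itself was higher at day 5 than at day 2. S100 proteins, calcium-binding proteins of which several are abundant in phagocytes, were all 7 at least 1 log2 higher at day 2, against 6.8% of genes, and 3 were at day 5. S100A10, a partner of annexin A2, rose by 1.81 (SE 0.23, adjusted p = 0.019), from 9.78 and 9.99 to 11.63 and 11.76, and was the called member. S100A8, a calprotectin chain, read 8.0 and 8.50 in scramble and 10.37 and 7.98 in #10, higher at day 2 alone. Its partner S100A9 read 8.82 and 8.79 in scramble and 10.64 and 10.27 in #10, and its change of 1.65 had an SE of 0.68 (adjusted p = 0.234).

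Among 12 chemoattractant receptors (median 0.72) the nucleotide receptor gene P2RY6 was called and was lower, with a change of -1.01 (SE 0.19, adjusted p = 0.047). The complement receptor genes C5AR1, at 4.42 (adjusted p = 0.068), and C3AR1, at 2.54 (adjusted p = 0.056), did not pass. C5AR1 read 4.13 and 4.61 in scramble and 8.60 and 8.98 in #10. Both #10 arrays lay above both scramble arrays, as in 21.2% of all tested genes. C5AR1 was below 5.83 log2 in scramble and passed the filter through the arrays in which it was high, #10 and #3 at day 5 (8.97). Secondary granule and matrix protease genes had 2 called members of 7, while 3 were higher and 3 lower on both days (median 1.07, with -0.01 at day 2 and 0.88 at day 5). Among the lower ones CHI3L1, a chitinase-like protein gene chosen after its values were seen, stood at -1.17 (adjusted p = 0.267). The median of the list turned to -0.06 with dim genes kept in and to -0.03 without #10 at day 5. The gelatinase gene MMP9 rose by 2.61 (SE 0.47, adjusted p = 0.046), from 9.96 and 11.31 to 12.73 and 13.75, and the cathelicidin gene CAMP by 1.07 (SE 0.18). Primary granule proteins, which promyelocytes make, had 0 called of 10 and a median of -0.01. PRTN3, the proteinase 3 gene, stood at -1.10 (adjusted p = 0.056), and CFD, the complement factor D gene, at 1.77 (adjusted p = 0.264). The phagocyte NADPH oxidase had 0 called of 5 (median 0.34), with RAC2 at 0.55 and NCF4 at 0.42.

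**Figure D3:**
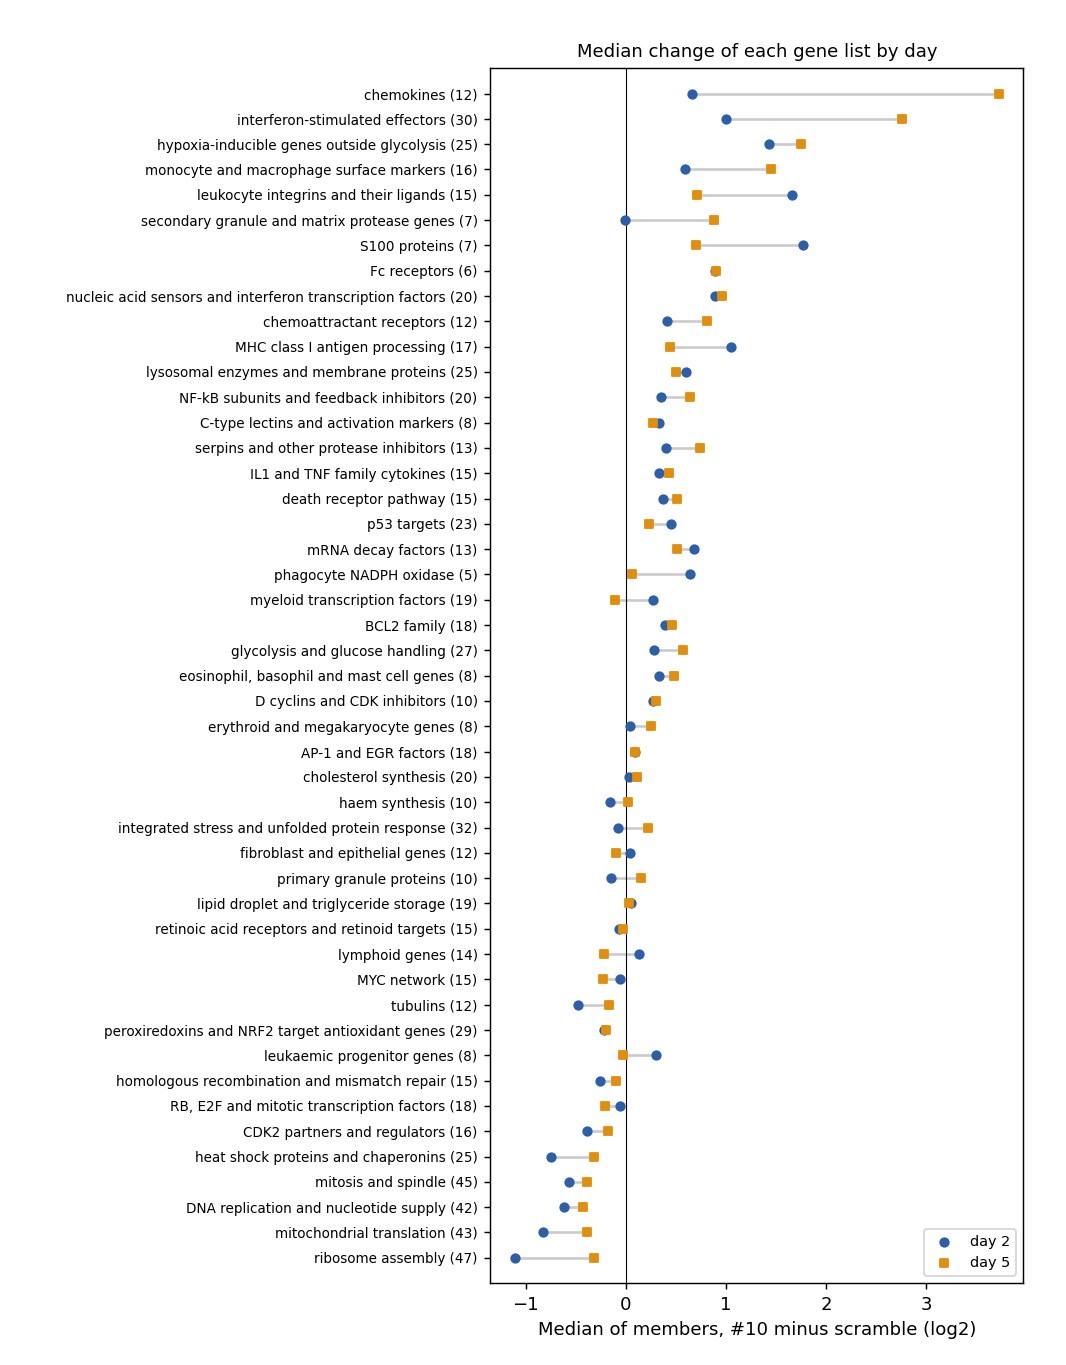
Median change in shCDK2 #10 against scramble (x axis, log2) at day 2 (blue circles) and day 5 (orange squares) for 47 gene lists, with the number of tested members in brackets. Chemokines (0.66 and 3.73) and interferon-stimulated effectors (1.00 and 2.76) were higher at day 5, integrins (1.66 and 0.71) at day 2, and ribosome assembly was lower at day 2 (-1.11) than at day 5 (-0.32).

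Most interferon-stimulated effector genes were higher, more so at day 5, and few passed: 27 of 30 were higher on both days, beside 26.3% of all genes, and 1 was lower on both. Of 30 tested members 29 had a change above 0, and the median was 1.72, with 1.00 at day 2 and 2.76 at day 5. At day 2, 15 members were at least 1 log2 higher, and at day 5, 27 were, beside 6.8% and 5.57% of all genes. The distance from scramble was larger at day 5 in 28 of 30 (share over all genes not counted), and 2 passed the test, in which the days are the repeats. BST2, which tethers budding viruses to the cell, rose by 2.47 (SE 0.41, adjusted p = 0.041), from 9.44 and 9.60 to 11.33 and 12.64. The apolipoprotein L gene APOL6 rose by 1.36 (SE 0.25), from 5.97 and 6.74 to 7.35 and 8.08. IFIT1, which binds viral RNA lacking a proper cap, read 6.72 and 6.52 in scramble and 8.85 and 12.53 in #10. GBP2, a guanylate-binding protein gene, read 5.17 and 6.29 in scramble and 10.08 and 9.23 in #10 and was among the 2 members further from scramble at day 2. IFIT1 stood at 4.06 (SE 1.02, adjusted p = 0.086) and GBP2 at 3.93 (SE 0.86, adjusted p = 0.068), and neither passed.

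Nucleic acid sensors and interferon transcription factors had 3 called of 20 (median 0.81). IFI16, a sensor of DNA, read 7.23 and 6.98 in scramble and 9.54 and 10.87 in #10. IFIH1, a sensor of double-stranded RNA, read 5.86 and 6.4 in scramble and 7.31 and 9.83 in #10. IFI16 rose by 3.10 (SE 0.50), IFIH1 by 2.44 (SE 0.43) and the interferon regulatory factor gene IRF2 by 1.20 (SE 0.19). The related sensor RIGI stood at 3.16 (SE 0.77, adjusted p = 0.081). All 17 genes of MHC class I antigen processing had a change above 0 (median 0.69, 1.05 at day 2 and 0.44 at day 5). The peptide transporter gene TAP1 rose by 2.00 (SE 0.36) and the immunoproteasome gene PSMB9 by 1.76 (SE 0.23, adjusted p = 0.021). TAP1 read 8.34 and 8.48 in scramble and 9.71 and 11.11 in #10, and PSMB9 read 8.41 and 8.55 in scramble and 10.02 and 10.46 in #10.

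The interferon-stimulated response element, searched as GAAA, any 2 bases and GAAA on either strand, lay before 15 of 22 interferon effectors with a promoter (68.2%). Its shares were 40% of 15 MHC class I genes and 2.24% of 10382 tested genes. The windows of IFIT1, IFIT3 and IFI6, the members with a match and the largest change, are shown because they carry the list's values, with the match nearest the start in capitals.
IFIT1: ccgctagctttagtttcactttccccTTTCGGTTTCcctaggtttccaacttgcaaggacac
IFIT3: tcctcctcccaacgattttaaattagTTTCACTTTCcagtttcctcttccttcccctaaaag
IFI6: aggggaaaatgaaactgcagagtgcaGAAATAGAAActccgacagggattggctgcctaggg
They lie at chr10:89392494-89392555 and chr10:89327849-89327910 on the plus strand and chr1:27672250-27672311 on the minus strand, and the 250 bases hold 2, 2 and 3 matches. IFIT3 read 6.76 and 7.13 in scramble and 8.85 and 11.57 in #10. IFI6 read 7.39 and 7.55 in scramble and 9.05 and 12.20 in #10. As in IFIT1, both #10 arrays were above scramble and the day 5 array was the higher one.

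Chemokines had the highest median of all lists, 2.10, and the widest gap between days, 0.66 at day 2 and 3.73 at day 5, with 0 of 12 called. CCL8 read 4.92 and 4.94 in scramble and 5.11 and 13.19 in #10, and CCL7 read 4.47 and 4.70 in scramble and 5.74 and 12.42 in #10. Both attract monocytes, both were dim in scramble, and CCL8 was near scramble at day 2. CCL3, an attractant of monocytes and T cells, was high on both days, at 10.71 and 13.58 in #10 against 7.5 and 7.49 in scramble, and lay closest to the threshold (4.65, SE 0.91, adjusted p = 0.051). The neutrophil attractant gene CXCL3 was 0.64 above scramble at day 2 and 5.90 at day 5. At day 5, 10 of 12 members were at least 1 log2 higher, beside 5.57% of all genes. Of 15 chemokine genes with a probe set, 12 passed the filter on dim genes, which uses the mean over all arrays. CCL7, CCL8 and CXCL3 were dim in scramble and in #10 at day 2, and passed through the arrays in which they were high. The list median and the count of 10 thus depend in part on the filter and describe the tested members alone.

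Of 20 NF-kB subunits and feedback inhibitors TNFAIP3 was called (list median 0.65). TNFAIP3, which edits ubiquitin chains to shut off NF-kB signalling, read 8.62 and 8.66 in scramble and 9.89 and 11.94 in #10, a rise of 2.27 (SE 0.41, adjusted p = 0.046). NFKBIZ, a nuclear regulator of the pathway, stood at 2.76 (adjusted p = 0.087). IL1 and TNF family cytokines had 1 called of 15 (median 0.49), the death ligand gene TNFSF10. IL1B, the interleukin-1 beta gene, read 7.02 and 8.12 in scramble and 11.16 and 13.69 in #10, and IL1A read 5.6 and 6.34 in scramble and 8.75 and 11.90 in #10. Both #10 arrays of each lay above both scramble arrays, as in 21.2% of all tested genes. Neither passed (4.85, SE 1.14, adjusted p = 0.077, and 4.36, SE 1.08, adjusted p = 0.084). Other genes of activation in the leading set were the interleukin-10 receptor gene IL10RA, which rose by 3.31, and NAMPT, a cytokine-like enzyme of NAD synthesis, which rose by 3.42.

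The NF-kB motif, searched as GGG, any 2 bases and TTTCC on either strand, lay before 4 of 9 chemokine genes with a promoter (44.4%) and 6 of 17 NF-kB genes (35.3%), against 1.97% of tested genes. The chemokine genes with a match were CCL20, CXCL1, CXCL2 and CXCL3. The windows of 3 of them and of the called gene TNFAIP3 are shown for comparison of the matched letters, with the match nearest the start in capitals. The TNFAIP3 window holds a further match, ggaaagtccc, left in lower case.
CCL20: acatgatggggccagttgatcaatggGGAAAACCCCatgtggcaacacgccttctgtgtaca
CXCL3: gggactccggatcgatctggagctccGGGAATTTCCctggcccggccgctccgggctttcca
CXCL2: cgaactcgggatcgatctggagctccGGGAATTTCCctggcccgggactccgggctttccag
TNFAIP3: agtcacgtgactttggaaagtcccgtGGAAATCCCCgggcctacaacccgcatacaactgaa
They lie at chr2:227813737-227813798 (plus strand), chr4:74038733-74038794 and chr4:74099238-74099299 (both minus) and chr6:137867178-137867239 (plus). CCL20 read 8.78 and 8.90 in scramble and 10.56 and 13.73 in #10, and CXCL2 read 6.37 and 6.61 in scramble and 6.66 and 11.28 in #10. CXCL1 holds the motif as well and stood at -0.02 over both days, so members with the motif did not all differ from scramble.

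**Figure D4:**
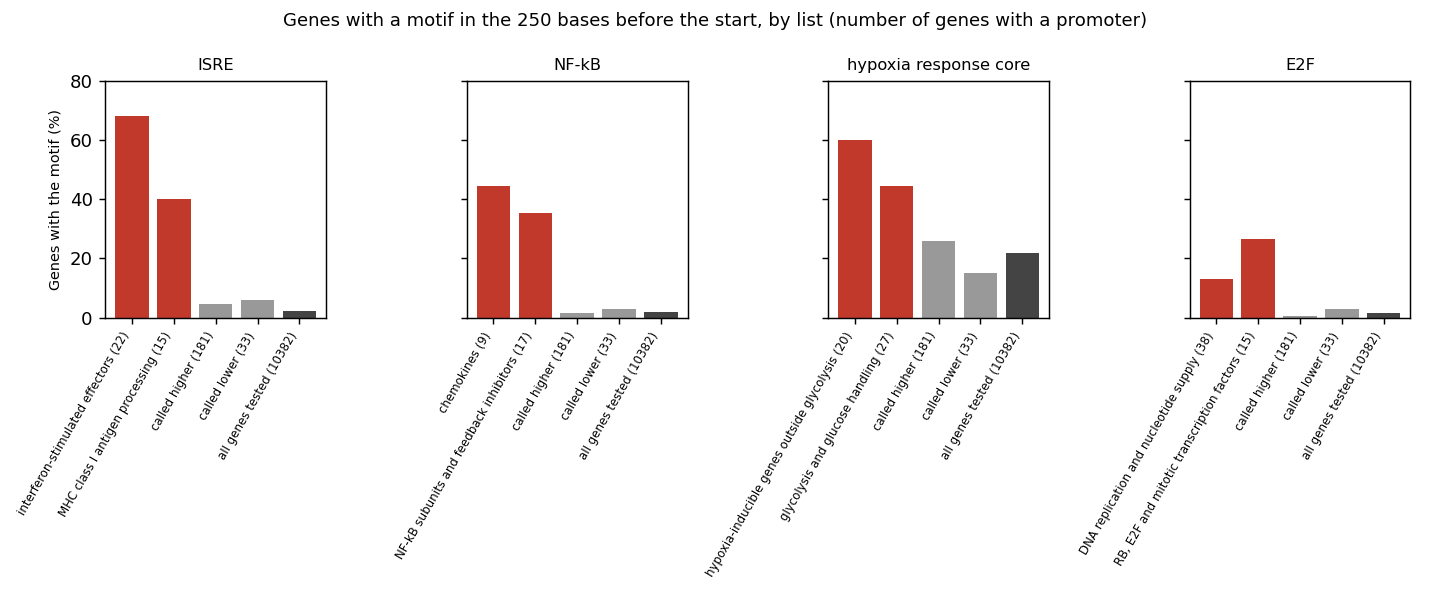
Share of genes (y axis, percent) with a motif in the 250 bases before the RefSeq start, for 4 motifs, in gene lists (red), in genes called higher or lower (light grey) and in all tested genes (dark grey), with the number of genes that have a promoter in brackets. The lists named for a pathway stand above all tested genes, while the called genes lie on both sides of them. For ISRE, the interferon-stimulated response element, called genes stand at 4.42% (higher) and 6.06% (lower, 2 of 33), beside 2.24% of tested genes. For NF-kB they stand at 1.66% and 3.03% (1 of 33), beside 1.97%. For E2F they stand at 0.552% and 3.03% (1 of 33), beside 1.5%. For the hypoxia core they stand at 26% and 15.2%, beside 21.9%.

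Most genes of DNA replication and of mitosis were lower on both days by modest amounts, and few passed; the smaller cell-cycle lists were mixed. Among 16 CDK2 partners and regulators (median -0.33) 9 were lower on both days and 2 were called, both lower. CDC25A, the phosphatase that activates CDK2, read 10.60 and 10.32 in scramble and 9.06 and 9.48 in #10. CCNA2, the cyclin A2 gene, read 10.55 and 10.60 in scramble and 9.40 and 9.46 in #10. CDC25A fell by 1.19 (SE 0.22, adjusted p = 0.047) and CCNA2 by 1.14 (SE 0.20, adjusted p = 0.044), and the change of CCNA2 was alike at both days. The germ-line and leukaemia cyclin gene CCNA1 was higher, at 1.95, and did not pass (adjusted p = 0.103). CDKN1A, whose product p21 blocks CDKs, read 7.0 and 7.84 in scramble and 9.16 and 10.72 in #10, a rise of 2.52 (SE 0.34, adjusted p = 0.022). It was the called member of 10 D cyclins and CDK inhibitors (median 0.19, 5 higher and 3 lower on both days), where the cyclin D1 gene CCND1 stood at 1.38 (adjusted p = 0.138).

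FOXM1, which switches on genes of mitosis, read 8.74 and 8.49 in scramble and 7.16 and 7.30 in #10, and fell by 1.39 (SE 0.22, adjusted p = 0.037). It was the called member of 18 genes of RB, E2F and mitotic transcription factors (median -0.22, 8 lower and 5 higher on both days), and RB1 stood at 1.12 without passing. Of 42 genes of DNA replication and nucleotide supply 37 were lower on both days, beside 41.7% of all genes (median -0.52, with -0.62 at day 2 and -0.43 at day 5). CDC45, part of the replicative helicase, fell by 0.92 (SE 0.17, adjusted p = 0.047), from 9.03 and 8.82 to 8.06 and 7.95, and was the called member. RFC3, a clamp loader gene, stood at -0.94 (adjusted p = 0.112). CTPS1, which makes CTP and was named among the leading genes outside the list, fell by 1.22 (SE 0.20). Among 45 mitosis and spindle genes 40 were lower on both days, beside 41.7% of all genes (median -0.48), and 0 were called. The activator of anaphase CDC20 stood at -1.21 (adjusted p = 0.069) and the cyclin B1 gene CCNB1 at -1.13 (adjusted p = 0.074). In homologous recombination and mismatch repair 0 of 15 were called (median -0.21), with RAD51AP1 at -0.67 and EXO1 at -0.56.

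The E2F motif, searched as TTTGGCGC or TTTCGCGC on either strand, lay before 5 of 38 replication genes (13.2%) and 4 of 15 genes of the RB and E2F list (26.7%), against 1.5% of tested genes. The replication genes with a match were MCM6, POLA1, POLA2, POLE and TIPIN. The windows of the 3 with the lowest change are shown, with the match nearest the start in capitals. The 250 bases hold 2 matches in TIPIN, 4 in MCM6 and 1 in POLA2. In TIPIN and MCM6 a further match, TTTGGCGC, overlaps the one in capitals and begins in the lower-case letters before it.
TIPIN: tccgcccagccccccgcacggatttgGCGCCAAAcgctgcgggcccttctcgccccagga
MCM6: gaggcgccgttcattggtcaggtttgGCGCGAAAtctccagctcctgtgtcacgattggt
POLA2: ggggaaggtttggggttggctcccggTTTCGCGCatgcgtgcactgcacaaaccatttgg
They lie at chr15:66356714-66356773 and chr2:135876496-135876555 on the minus strand and chr11:65261883-65261942 on the plus strand. TIPIN, a replication fork protector, read 9.38 and 8.73 in scramble and 7.96 and 8.51 in #10. MCM6, a helicase subunit, read 10.69 and 10.55 in scramble and 9.82 and 10.07 in #10, and POLA2, a subunit of the primase complex, read 9.56 and 9.60 in scramble and 8.78 and 9.09 in #10. In each gene both #10 arrays lay below both scramble arrays, as in 32.9% of all tested genes. None of the 3 passed (adjusted p = 0.180, 0.125 and 0.115).

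Ribosome assembly had the lowest median of all lists, -0.72, and was lower mainly at day 2. All 47 tested members had a change below 0. The median signal of the members was 10.08 at day 2 and 9.53 at day 5 in scramble, and 8.92 and 9.03 in #10. The difference between days thus lay mostly in scramble. At day 2, 31 were at least 1 log2 below scramble, beside 4.02% of all genes, and at day 5, 2 were, beside 0.537%. GRWD1, a chaperone of a ribosomal protein, read 11.20 and 10.86 in scramble and 9.29 and 9.87 in #10. UTP20, a processing factor of the small subunit, read 7.93 and 7.58 in scramble and 6.21 and 6.51 in #10. RRP15, which acts in maturation of the large subunit, read 7.31 and 6.45 in scramble and 5.83 and 5.35 in #10. These 3 were called, with falls of 1.45, 1.39 and 1.29 (adjusted p = 0.046, 0.031 and 0.049). Beside them, IFRD2, which silences idle ribosomes, fell by 1.19, DPH2, which modifies an elongation factor, by 1.21, and the RNA helicase gene DDX39A by 1.15. The list median stood at -0.65 and 0.05 in #1 at days 2 and 5 and at -0.55 and -0.15 in #3, against the same scramble arrays.

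Mitochondrial translation had 1 called member of 43 and 36 lower on both days, beside 41.7% of all genes (median -0.57, with -0.83 at day 2 and -0.39 at day 5). The members' median signal moved from 10.30 to 9.76 in scramble and from 9.41 to 9.58 in #10, so that day difference lay mostly in scramble. GFM1, a mitochondrial elongation factor gene, fell by 1.31 (SE 0.24, adjusted p = 0.047), from 9.24 and 8.86 to 7.46 and 8.03. MRPS34, a subunit of the mitochondrial ribosome, was 1.96 below scramble at day 2 and 0.36 below at day 5 and did not pass. The mitochondrial dicarboxylate carrier gene SLC25A10 fell by 1.25 (SE 0.18) and the RNA-modifying enzyme gene PUSL1 by 1.24 (SE 0.21). Heat shock proteins and chaperonins had 0 called of 25, with 23 lower on both days, beside 41.7% of all genes (median -0.48). Their median signal was 11.87 and 11.38 in scramble at days 2 and 5 and 11.09 and 11.08 in #10. The co-chaperone genes DNAJB1, at -0.94, and DNAJB4, at 0.83, differed in sign. BAG2, a further co-chaperone gene, fell by 1.12 (SE 0.21). Peroxiredoxins and NRF2 target antioxidant genes had 1 called in each direction of 29 (median -0.19). PIR, an iron-binding nuclear protein gene, read 8.93 and 8.36 in scramble and 6.42 and 6.70 in #10, and fell by 2.08 (SE 0.26, 95% interval -2.68 to -1.49, adjusted p = 0.017). It lay lowest of all called genes. TXNIP, an inhibitor of thioredoxin that also limits glucose uptake, read 9.26 and 9.64 in scramble and 12.60 and 12.13 in #10, and rose by 2.92 (SE 0.42, adjusted p = 0.028).

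Genes of cell death and stress changed at few members. Among 18 BCL2 family genes (median 0.29) the called ones were BNIP3, BNIP3L and BBC3, which encodes the killer protein PUMA and rose by 1.15 (SE 0.17, adjusted p = 0.032). The survival gene BCL2A1, an NF-kB target, read 5.93 and 6.19 in scramble and 8.76 and 10.38 in #10 and did not pass (3.52, SE 0.76, adjusted p = 0.066). TNFSF10, which encodes the ligand TRAIL, read 6.54 and 7.34 in scramble and 10.00 and 11.97 in #10, a rise of 4.04 (SE 0.74, adjusted p = 0.046). It was the called gene of 15 in the death receptor pathway (median 0.39), and the TRAIL receptor gene TNFRSF10B stood at 1.81 (adjusted p = 0.056). CDKN1A and BBC3 were the called genes of 23 p53 targets (median 0.36). DDIT4 was the called gene of 32 in the integrated stress and unfolded protein response (median 0.02), where the cystine transporter gene SLC7A11 stood at -1.11 without passing.

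Transcription and RNA turnover genes were called at few members. JUN, an AP-1 subunit, read 6.3 and 7.08 in scramble and 9.38 and 10.96 in #10, a rise of 3.48 (SE 0.38, adjusted p = 0.015), and was the called gene of 18 AP-1 and EGR factors (median 0.08). IER3, an early response gene, was 1.43 above scramble at day 2 and 6.49 at day 5 and did not pass. ZFP36L1, which directs mRNAs to decay, read 5.45 and 6.66 in scramble and 10.68 and 11.98 in #10, a rise of 5.27 (SE 0.64, adjusted p = 0.017). With BTG1, an antiproliferative gene that rose by 1.89, it made the 2 called of 13 mRNA decay factors (median 0.35). MXI1 was the called gene of 15 in the MYC network (median -0.15), where the related antagonist gene MXD1 stood at 1.64 (adjusted p = 0.065).

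Myeloid transcription factors had 0 called of 19 (median 0.33), with BCL6 at 2.97 (adjusted p = 0.0505) and ID2 at 2.07. Leukaemic progenitor genes had 0 called of 8 (median -0.21), with PBX3 at 0.98 and CYTL1 at -0.68. Retinoic acid receptors and retinoid targets had 0 called of 15 (median -0.02), with the retinal reductase gene DHRS3 at 1.55 (adjusted p = 0.052) and the retinoid X receptor gene RXRA at 0.54. These 3 lists held no called gene, while BCL6 and DHRS3 lay near the threshold.

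Serpins and other protease inhibitors had 2 called of 13, all with a change above 0 (median 0.53). SERPINA1, the gene of alpha-1 antitrypsin, read 6.07 and 6.55 in scramble and 10.62 and 12.64 in #10, a rise of 5.32 (SE 0.87, 95% interval 3.29 to 7.34, adjusted p = 0.0405). TIMP1, an inhibitor of matrix proteases, read 10.66 and 11.31 in scramble and 13.26 and 14.58 in #10, a rise of 2.94 (SE 0.41). Among 12 tubulins (median -0.16) TUBA1A rose by 2.88 (SE 0.53, adjusted p = 0.046), from 8.18 and 7.60 to 10.03 and 11.50, and TUBB2A stood at 1.72 without passing. Haem synthesis had 0 called of 10 (median 0.07). There the mitochondrial iron importer gene SLC25A37 stood at 2.14 (adjusted p = 0.052), and CPOX, the coproporphyrinogen oxidase gene, was 0.27 below scramble at day 2 and 2.64 above it at day 5. The scramble arrays of CPOX read 9.25 and 6.57, so that difference lay mostly in scramble.

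Lists of other cell types held 4 called genes. In the eosinophil, basophil and mast cell list (8 tested, median 0.23) PRG2, a granule protein gene, rose by 1.31 (SE 0.25) and HDC, which makes histamine, by 1.56 (SE 0.26), and both were already bright in scramble, at 12.07 to 12.41 and 11.28 to 11.30. Of 5 defining markers of these cells with a probe set, CLC read 4.21 to 4.32 and CPA3 4.08 to 4.43, both under the 5.83 log2 level in all 4 arrays. The transcription factor gene GATA2 stood at 1.44 (adjusted p = 0.104). In the lymphoid list (14 tested, median -0.05) CD3D, a chain of the T-cell receptor complex, rose by 2.25 (SE 0.20, adjusted p = 0.013), from 8.81 and 8.82 to 11.27 and 10.85, and NKG7 stood at 0.83 without passing. The T-cell markers CD3E, CD3G, CD2 and CD8A read 5.77 to 6.48, near that level, in all 4 arrays. Of the B-cell markers PAX5 was bright in scramble and #10 alike, at 10.20 to 10.48, CD79A read 7.25 to 7.67 and MS4A1 4.10 to 4.67, under the 5.83 log2 level. In the fibroblast and epithelial list (12 tested, median 0.02) the smooth muscle actin gene ACTA2 rose by 1.08 (SE 0.18), and FN1 was 0.30 above scramble at day 2 and 3.29 at day 5. The erythroid and megakaryocyte list had 0 called of 8 (median 0.11), with CD9 at 2.93 (adjusted p = 0.050) and ITGA2B at 0.97. The part of other cells in these values was not tested.

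Further genes of the leading set fell outside the lists. NEDD9, an adhesion scaffold gene, read 5.33 and 4.74 in scramble and 9.01 and 8.82 in #10, and NRP1, a co-receptor for semaphorins and VEGF, read 5.08 and 6.48 in scramble and 8.91 and 10.07 in #10. They rose by 3.88 (SE 0.56) and 3.71 (SE 0.68). PAM, which amidates peptide hormones, read 7.83 and 7.89 in scramble and 11.42 and 10.86 in #10, a rise of 3.28 (SE 0.45), and was further from scramble at day 2. The Notch co-activator gene MAML2 rose by 3.37, the phosphatase gene DUSP5 by 3.37, the antiviral gene SHFL by 3.36 and the membrane protein gene EMP1 by 3.32. Among the lower genes the transcriptional regulator gene NACC2 fell by 1.27, ABCF2 by 1.23 (adjusted p = 0.04995), the ciliary gene TEKT2 by 1.20, the proteasome activator gene PSME3 by 1.17 and the spliceosome gene SNRNP25 by 1.10. Leaving out the #1 arrays ended 7 of the 83 calls, those of ABCF2, PSME3, CDC45, CAMP, P2RY6, LPIN1 and ACTA2. Of the 14 alternative settings CDC45 and LPIN1 passed 4, RRP15 5 and ABCF2 and PSME3 6, so these calls are borderline. No gene of the lower set exceeded 2.08 in size, while FCGR2B reached 5.38 among the higher ones. In scramble 19 of the 217 genes called higher were below 5.83 log2 in both arrays.

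Some genes stood very differently against scramble on the 2 days. Named by the day 5 change minus the day 2 change, the genes with the highest difference were CCL8, CCL7, CD163, CXCL3, IER3, CD14, TCN1 and CD81, and TCN1, a vitamin B12 binder of granules, was 0.01 below scramble at day 2 and 4.71 above it at day 5. The genes with the lowest difference were RBP4, CFL2, EVI2A, CACNA2D4, GLIPR1, S100A8, ATOSB and FCN1. EVI2A was 3.66 above scramble at day 2 and 0.37 at day 5, and ATOSB was 2.96 above it and then 0.08. GLIPR1 stood at 2.67 and -0.47, and CACNA2D4, a calcium channel subunit gene, at 2.25 and -0.90. None of these genes passed over both days, and with 1 array per construct and day the difference between days has no test. Over all tested genes 475 were at least 1 log2 higher at day 2 and not at day 5, and 317 at day 5 and not at day 2. For lower genes the counts were 501 and 53.

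Against the mean of the hairpins #1 and #3, in which the scramble arrays cancel, limma called 0 of 12845 genes (0.0%), with 1417 at an unadjusted p under 0.05. The smallest adjusted p was 0.096, shared by HK1 and CD3D. HK1 was higher in #10 than in the other hairpins by 1.89 (SE 0.21, 95% interval 1.41 to 2.37) and CD3D by 1.73 (SE 0.17, interval 1.33 to 2.14). FCGR2B was higher by 3.50 (SE 0.50, interval 2.33 to 4.66, adjusted p = 0.107), SERPINA1 by 3.94 (SE 0.75, interval 2.19 to 5.70, adjusted p = 0.160) and PIR was lower, at -1.51 (SE 0.22, interval -2.03 to -1.0, adjusted p = 0.107). These intervals are not adjusted over genes. The 2 other hairpins were unlike each other: against the scramble array of the day FCGR2B stood at 0.41 and 0.09 in #1 and at 2.31 and 4.72 in #3, and HK1 at 0.13 and 0.48 in #1 and 2.28 and 2.39 in #3. CDKN1A stood at 0.87 and 0.26 in #1, at 0.22 and 1.00 in #3 and at 2.16 and 2.88 in #10. For IFIT1 the values were 0.20 and -0.21 in #1, 0.16 and 3.67 in #3 and 2.12 and 6.00 in #10. All of these share the scramble arrays. CDK2 itself differed from the other hairpins by -0.29 (SE 0.36, interval -1.14 to 0.56, adjusted p = 0.876), with -0.86 at day 2 and 0.28 at day 5. A deeper knockdown in #10 over both days was thus not detectable. The other hairpins include #3 at day 2, where CDK2 was near scramble. The count of 0 became 74, all higher, without the #10 array of day 2, and 612, of which 560 were higher, without the #3 arrays, when #1 alone stood on the other side.

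In the #10 array of day 5, 22 of 18132 genes were at least 3 log2 above each of the other 7 arrays, and 0 genes stood out so in any other array. They were chosen by this fold, with no test.

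**Figure D5:**
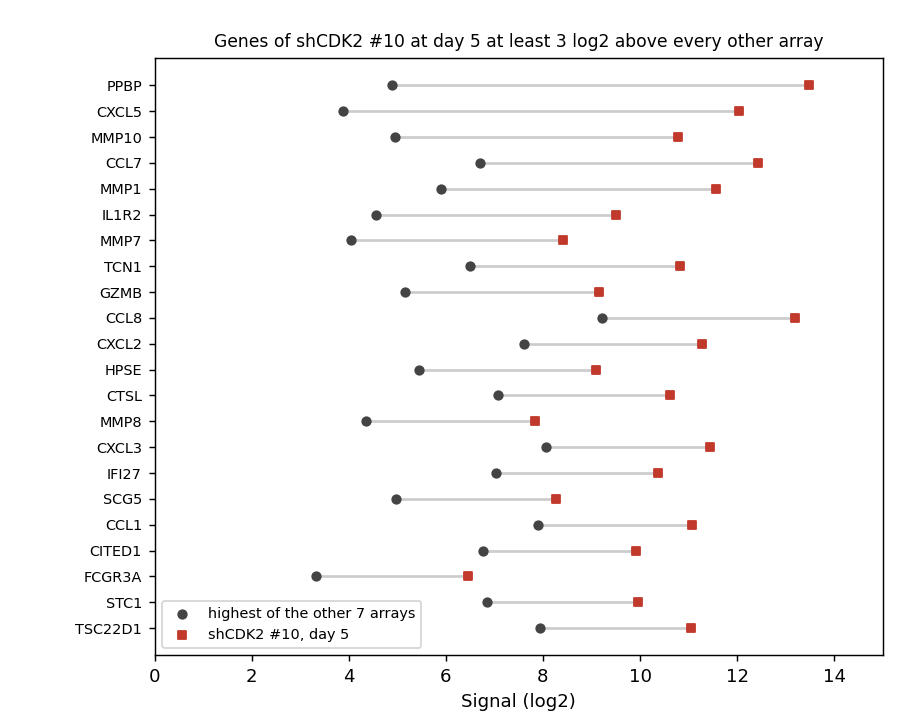
Signal (x axis, log2) of the 22 genes in shCDK2 #10 at day 5 and the highest value among the other 7 arrays, 1 array per point. PPBP, a chemokine gene, stands at 13.48 against 4.89 and CXCL5 at 12.03 against 3.89.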

How the data were processed

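The authors deposited log2 signals of 49395 Affymetrix probe sets on 8 arrays; that they are log2 was taken from their range. Partek is named per the submitters' processing notes; its version and the normalization: not given in the sources used here. Values were used as deposited. Of the probe sets 44994 had 1 gene, 1832 several and 2569 none in the platform annotation, and symbols were updated in a RefSeq table. A gene was its probe set with the highest mean, and of 18132 genes the 12845 averaging over 5.83 log2, the 40th percentile, were tested. Fits used limma 3.58.1 in R 4.3.3 (lmFit, eBayes; construct and day as terms; all 8 arrays; 3 residual degrees of freedom, prior 4.54), two-sided, with Benjamini-Hochberg adjustment over all tested genes, and were tested on simulated data. Tables and plots used Python 3.11.15, pandas 2.3.3 and matplotlib 3.10.9.

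The day term is the replicate block: the replicate number in the sample table stands for the day. The number of arrays limits the precision. Named genes were CDK2; the 20 called genes per direction with the largest change and 1 sign on both days, uncharacterized symbols passed over; the 8 per direction with the largest difference between days; and from each of 47 lists up to 6 called members and the 2 with the largest change. Genes outside this rule, such as LDHA and SLC2A1, were chosen after their values were seen. The comparison, members and lists were chosen with earlier results of these data known. Promoters were the 250 bases before RefSeq starts (GRCh38.p14). Alternatives were scaling, probe set choice, filter, arrays, day term and variance trend.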

Additional observations from a re-analysis of the deposited data

Results flagged for a closer look

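In 4 genes the #10 arrays lay on opposite sides of scramble on the 2 days, and the difference was not tested, since each construct and day has 1 array. CD81, a tetraspanin gene of the cell surface, was lower than scramble at day 2, with a change of -2.09, and higher at day 5, with 2.45. It read 10.78 and 9.10 in scramble and 8.68 and 11.55 in #10, so scramble and #10 moved in opposite directions between the days. RBP4, the plasma carrier of retinol, went the other way, with 1.85 at day 2 and -2.23 at day 5. It read 8.66 and 9.26 in scramble and 10.51 and 7.02 in #10. CFL2, an actin-severing cofilin gene, stood at 2.03 and -1.42, and its scramble arrays read 7.07 and 8.39. FCN1, the ficolin-1 gene of monocytes and granulocytes, stood at 1.61 and -1.25, from 7.96 and 8.74 in scramble to 9.57 and 7.49 in #10. Over both days these genes had changes of 0.18, -0.19, 0.31 and 0.18 and none passed (limma adjusted p = 0.936, 0.926, 0.860 and 0.916).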

How the results depend on the processing

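The count of 258 genes called in #10 against scramble was 82 after median centring, 131 with the filter at the 60th percentile, 597 with the 4 arrays of scramble and #10 alone and 960 without the #3 arrays; the cause was not tested. Without the day term, that is with no replicate block, it was 147, of which 144 were among the 258. With 1 array left out it ran from 0 (either scramble array) to 204; without #10 at day 2 the 204 calls shared 105 genes with the 258, and without #10 at day 5 the 182 calls shared 120. A lone array is then assumed to vary like the other constructs. All 258 kept their direction under the settings in which they were tested. Direction could not turn with the 4 arrays alone, without the day term, with the variance trend, or without the #1 or #3 arrays. These settings left the estimate of the change as it was. When all probe sets of a gene were averaged, 238 of the 258 were tested, and 153 were among the 201 genes called. Of 74 named calls tested that way, 19 no longer passed (limma adjusted p from 0.051 to 0.161). Of the 258, 35 passed in 12 of the 14 settings, the other 2 being those with 0 calls. For #10 against the other hairpins the count of 0 ran from 0 to 74 with 1 array left out and was 612 without the #3 arrays. Among named genes that were not called, TCN1 ran from -0.029 (without #10 at day 5) to 4.74 and CPOX from -0.16 (without scramble at day 5) to 2.53 with 1 array left out. Of 47 list medians 2 turned sign after quantile normalization, 3 after median centring, 2 with the mean of probe sets, 4 with no filter, 4 with the stricter filter and 2 to 6 with 1 array left out. Most were near 0; the secondary granule list (1.07) turned with no filter and without #10 at day 5, and myeloid transcription factors (0.33) without #10 at day 2.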

Other observations

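The 22 genes at least 3 log2 above every other array in #10 at day 5 included chemokine and protease genes. The genes were chosen after their values were seen, and 11 were too dim on average to be tested. PPBP, a platelet and neutrophil chemokine gene, read 13.48 against at most 4.89 elsewhere, and CXCL5, a further neutrophil attractant, 12.03 against 3.89. Matrix metalloproteinase genes were among them: MMP10 read 10.78 against 4.96, MMP1 11.56 against 5.89, MMP7 8.4 against 4.05 and MMP8 7.84 against 4.36. The decoy receptor gene IL1R2 read 9.51 against 4.55, the cytotoxic protease gene GZMB 9.15 against 5.15 and the heparanase gene HPSE 9.10 against 5.44. CCL7, TCN1, CCL8, CXCL2, CTSL, CXCL3, IFI27, SCG5, CCL1, CITED1, FCGR3A, STC1 and TSC22D1 were the others. Of the megakaryocyte markers PPBP alone was among the 22, and at day 5 PF4 read 6.61 in scramble and 6.94 in #10, GP9 7.95 and 7.67 and ITGA2B 7.19 and 8.59. With 1 array these values have no replicate check.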
